A study of Rattus norvegicus with 6 samples.

Results

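Nr4a1, Nr4a2 and Nr4a3 encode the NR4A subfamily of orphan nuclear receptors, and their transcripts were followed here in the brain of rats given LINC00894 or an empty plasmid. The members were the rows of the deposited expression table whose gene symbol is one of these names, which gave 3 genes of 32623 in the table. RNA sequencing of poly(A) RNA covered 6 libraries of brain, 3 labelled pcDNA3.1/LINC00894 (called LINC00894 below) and 3 labelled pcDNA3.1 (called vector). pcDNA3.1 is an expression plasmid, present in both groups, and LINC00894 is a human long non-coding RNA. The study as titled is about brain ischemia with reperfusion, whereas the sample labels give neither an ischemic state nor strain, brain region, age, time or route of plasmid delivery. Nor do they tie each library to an animal of its own, so a p-value below reflects only how far these libraries differ, which can be technical in part. The level of LINC00894 itself was not analysed here.

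NR4A receptors are transcription factors that bind DNA in the same way as hormone receptors but have no known classical ligand, since their ligand pocket is filled by side chains. Their activity is therefore set largely by how much of the protein is made, and their genes are switched on within minutes by calcium, cyclic AMP, growth factors and stress through factors such as CREB, MEF2 and SRF. In the brain Nr4a1 (Nur77) is a rapid response gene of active neurons, Nr4a2 (Nurr1) is also a lasting identity factor of midbrain dopaminergic neurons and of claustral and deep cortical neurons, and Nr4a3 (Nor1) is a further rapid response member. NR4A proteins take part in memory formation in mouse hippocampus, and in myeloid cells they restrain inflammatory gene expression.

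The table gives coordinates without naming a genome build. By them, Nr4a1 (ENSRNOG00000007607) lies on chromosome 7 from 142905758 to 142920216 on the plus strand. Nr4a2 (ENSRNOG00000005600) lies on chromosome 3 from 43111240 to 43119159 on the minus strand, and Nr4a3 (ENSRNOG00000005964) on chromosome 5 from 63781801 to 63821637 on the plus strand. No other gene of the table overlapped any of them, so reads of an overlapping neighbour do not enter their counts. The RefSeq promoter table of the GRCr8 assembly held a start region for Nr4a1 and Nr4a2. The 250 bases before each start are printed because CREB acts on these genes through short cyclic AMP response elements, and because the members had lower mean levels in LINC00894 together. Capitals mark every TGACG or its reverse complement CGTCA, the core of that element, with overlapping matches counted separately.
Nr4a1, GRCr8 chr7:134259888-134260137, plus strand: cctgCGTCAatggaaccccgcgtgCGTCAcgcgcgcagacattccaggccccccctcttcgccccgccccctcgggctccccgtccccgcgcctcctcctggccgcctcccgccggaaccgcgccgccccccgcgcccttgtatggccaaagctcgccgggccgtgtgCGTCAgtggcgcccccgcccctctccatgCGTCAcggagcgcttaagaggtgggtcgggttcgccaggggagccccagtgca
Nr4a2, GRCr8 chr3:62104888-62105137, minus strand: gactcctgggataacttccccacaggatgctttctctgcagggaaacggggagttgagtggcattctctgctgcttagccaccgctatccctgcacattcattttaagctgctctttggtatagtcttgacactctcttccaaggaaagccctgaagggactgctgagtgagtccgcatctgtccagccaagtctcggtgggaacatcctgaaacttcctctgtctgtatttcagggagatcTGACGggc

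The Nr4a1 region held 4 cores, beginning at positions -246, -226, -82 and -53 counted from the start, and each of the 4 was part of the longer word TGCGTCA. The Nr4a2 region held 1 core, at position -8. The start used for Nr4a2 is the one RefSeq lists and may be that of an alternative transcript, so its matches may not describe the start used in brain. Among 33469 rat promoter regions of the same length, 18.2% held at least 1 core on either strand, 0.173% held at least 4, and 1.66% held TGCGTCA. Those regions were not matched for base composition, and G and C made up 74.8% of the Nr4a1 region and 52.0% of the Nr4a2 region. Neither region held the full element TGACGTCA, which 1.59% of promoters held, or the NR4A binding element AAAGGTCA, which 1.24% held. Neither held an exact CArG box, the binding word of SRF (CCWWWWWWGG, W for A or T), which 1.497% of promoters held. Near matches of these words were not counted, such as CCTTGTATGG in the Nr4a1 region. These are matches of letters within 250 bases and say nothing of which factors were bound in these brains.

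All members had lower mean levels in LINC00894 than in vector brains. By the fold changes that edgeR fitted, Nr4a1 and Nr4a3 stood at 0.21 and 0.23 times their vector levels, and Nr4a2 at 0.54 times its vector level. Most of that distance came from vector replicates 2 and 3, since vector replicate 1 lay close to the LINC00894 libraries for every member. None of the 3 passed edgeR's quasi-likelihood test with Benjamini-Hochberg adjustment over the 15121 genes tested, at a threshold of 0.05. The whole table gave 0 calls there, which is 0% of genes, with 610 genes at an unadjusted p under 0.05 (4.03%). In bulk tissue, fewer cells of a type and less RNA per cell cannot be told apart.

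**Figure D1:**
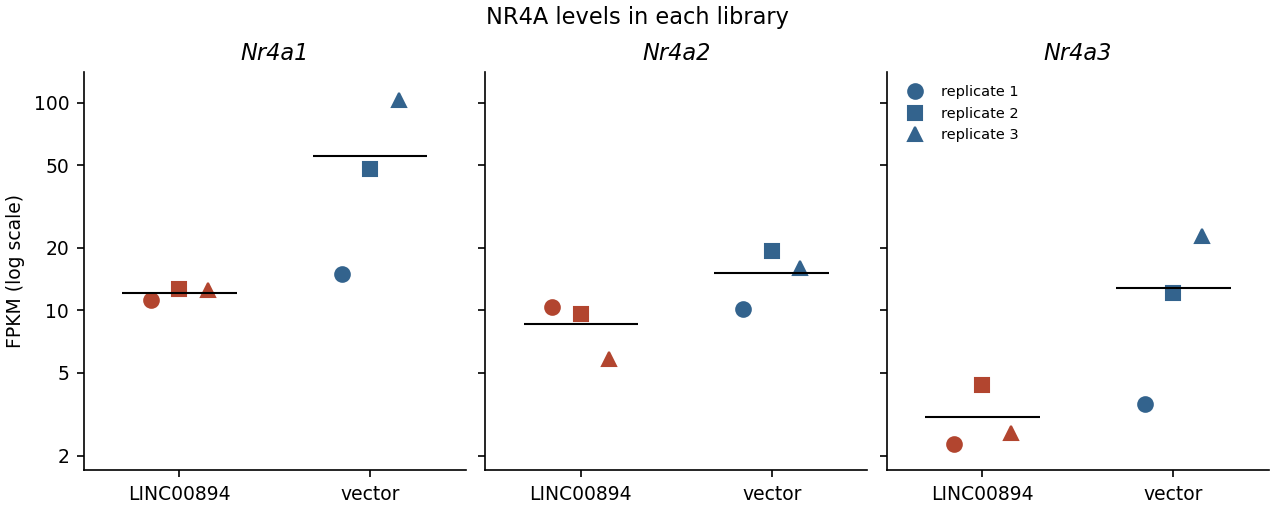
FPKM (log axis) of Nr4a1, Nr4a2 and Nr4a3 in each of 3 LINC00894 and 3 vector libraries; horizontal lines are group means. The LINC00894 libraries lie close together for Nr4a1 (11.2 to 12.6 FPKM), whereas the vector libraries run from 14.97 to 102.7 FPKM.

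Nr4a1 had 11.2, 12.6 and 12.6 FPKM in LINC00894 replicates 1, 2 and 3, against 14.97, 48.0 and 102.7 FPKM in the vector replicates. The underlying counts were 390, 431 and 446 in LINC00894 and 533, 2076 and 4298 in vector. The LINC00894 libraries were nearly level with each other, every vector library lay above all of them, and the lowest vector library lay only just above. The mean was 12.1 ± 0.803 FPKM in LINC00894 and 55.2 ± 44.3 FPKM in vector (SD, n = 3 each), so the vector libraries were widely spread. edgeR gave a log2 fold change of -2.25 (SE 0.54, 95% interval -3.46 to -1.05), with an unadjusted p of 0.00209 and an adjusted p of 0.982. Without vector replicate 3 the log2 fold change was -1.44, which is 0.368 times the vector level, with an adjusted p of 1.0 from edgeR. When every gene with a count was kept in the edgeR fit, Nr4a1 passed with an adjusted p of 0.0155, among 8 genes called of 22810 (0.0351%). Over all 16 alternative settings its adjusted p ran from 0.0155 to 1.0, and that setting was the only one of the 16 in which it passed.

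Nr4a3 had 2.26, 4.39 and 2.58 FPKM in LINC00894 replicates 1, 2 and 3, against 3.54, 12.1 and 22.9 FPKM in the vector replicates. Its counts were 130, 248 and 151 in LINC00894 and 208, 865 and 1582 in vector. LINC00894 replicate 2 lay above vector replicate 1, so the groups overlapped, while vector replicates 2 and 3 lay far above all LINC00894 libraries. The means were 3.08 ± 1.15 FPKM in LINC00894 and 12.8 ± 9.69 FPKM in vector (SD, n = 3 each). edgeR gave a log2 fold change of -2.12 (SE 0.56, 95% interval -3.39 to -0.86), with an unadjusted p of 0.00396 and an adjusted p of 0.982. Without vector replicate 3 the log2 fold change was -1.41, or 0.377 times the vector level.

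Nr4a2 had 10.4, 9.55 and 5.82 FPKM in LINC00894 replicates 1, 2 and 3, against 10.1, 19.4 and 16.0 FPKM in the vector replicates. LINC00894 replicate 1 and vector replicate 1 had the same raw count, 458. The groups therefore touched: in FPKM LINC00894 replicate 1 lay above vector replicate 1, whereas in CPM, which scales counts to library size with TMM factors, it lay below, at 33.7 against 35.4. The means were 8.58 ± 2.43 FPKM in LINC00894 and 15.2 ± 4.66 FPKM in vector (SD, n = 3 each). edgeR gave a log2 fold change of -0.89 (SE 0.28, 95% interval -1.51 to -0.26), with an unadjusted p of 0.0104 and an adjusted p of 0.982. Its log2 fold change moved little without vector replicate 3, to -0.86.

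On the TMM-scaled log2 CPM scale, all LINC00894 libraries lay below all vector libraries for Nr4a1 and Nr4a2, 2 of 3 members, where 3.88% of the genes tested did so. All 3 members were lower at an unadjusted p under 0.05 by edgeR, where 2.22% of the genes tested were. The members were chosen with earlier results of these data known and were measured in the same libraries, so these counts are no independent support. Two-sided exact permutation tests of log2(FPKM + 1) over the 20 arrangements of the libraries gave p = 0.1 for Nr4a1 and p = 0.2 for Nr4a2 and Nr4a3. The smallest p this design allows is 0.1. On log2 CPM, an alternative added after the values were seen, the exact permutation p was 0.1 for Nr4a1 and Nr4a2 and 0.2 for Nr4a3. DESeq2 called 8 genes of 22805 at an adjusted p of 0.05 (0.0351%), none of them an NR4A gene, with adjusted p of 0.73 for Nr4a1 and Nr4a2 and 0.998 for Nr4a3.

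Counting error was small beside the distance between libraries in most pairs, though not in all. Across the 9 pairs of a LINC00894 with a vector library, the CPM ratio of Nr4a1 ran from 0.102 to 0.812, and the 95% exact Poisson interval lay below 1 in 9 of 9 pairs. For Nr4a2 the ratio ran from 0.291 to 0.953 and the interval lay below 1 in 7 of 9 pairs, the exceptions being LINC00894 replicates 1 and 2 against vector replicate 1. For Nr4a3 it ran from 0.0922 to 1.20 and lay below 1 in 8 of 9 pairs, the exception being LINC00894 replicate 2 against vector replicate 1. These intervals compare single libraries and cover counting error only. Each library enters several of the 9 pairs, so the pairs are not independent.

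**Figure D2:**
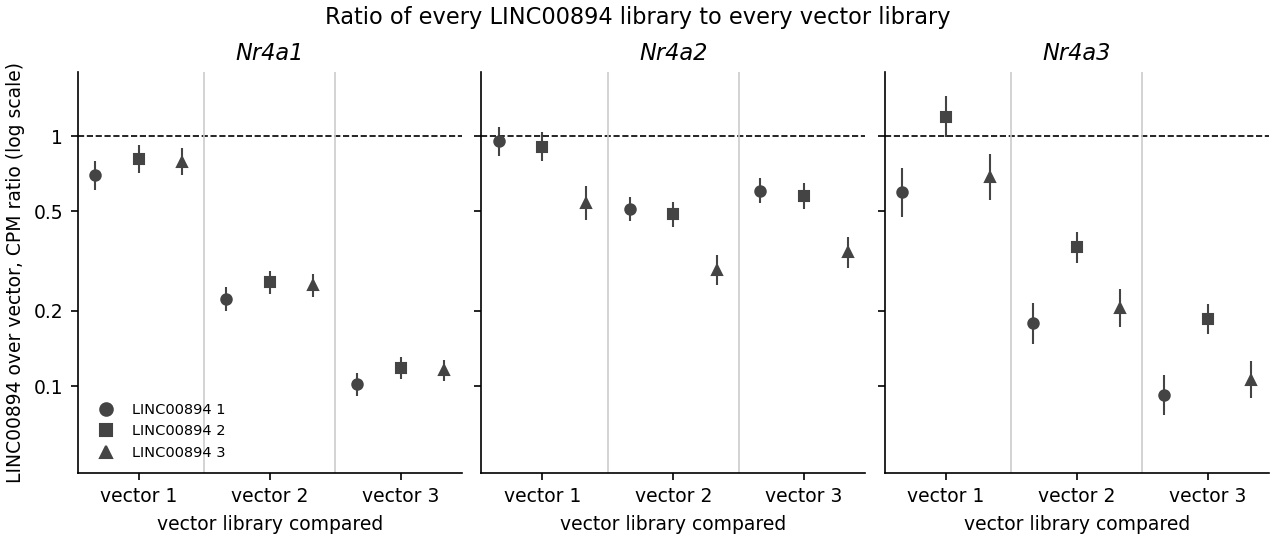
CPM ratio (log axis) of each LINC00894 library to each vector library for the 3 NR4A genes, with 95% exact Poisson intervals; marker shape gives the LINC00894 replicate and the columns give the vector replicate. Ratios lie nearest to 1 against vector replicate 1, and for Nr4a1 and Nr4a3 lowest against vector replicate 3, down to 0.102 and 0.0922.

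The vector group was far more spread than the LINC00894 group for Nr4a1 and Nr4a3. The highest vector library was 6.85 times the lowest for Nr4a1 and 6.46 times for Nr4a3 in CPM, against 1.16 and 2.01 times among the LINC00894 libraries. Ranked by the SD of log2 CPM within the vector group, Nr4a1 (SD 1.39) was number 96 and Nr4a3 (SD 1.36) number 104 of the 15121 genes tested. Within the LINC00894 group, Nr4a1 had an SD of 0.12, smaller than that of most genes (rank 13061), and Nr4a3 one of 0.53. Nr4a2 was equally spread in both groups, with an SD of 0.45 in LINC00894 and 0.46 in vector. Over all genes tested, 42.7% had the wider spread in vector, so the vector group was not the more variable one in general.

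Per length, Nr4a1 was the most abundant member and Nr4a3 the least in all LINC00894 libraries, where their FPKM ranges did not overlap. In vector libraries Nr4a1 stayed first, but Nr4a3 stood above Nr4a2 in vector replicate 3, at 22.9 against 16.0 FPKM. The ranges of the members overlapped across the vector libraries. The summed NR4A level was 23.8, 26.6 and 21.0 FPKM in LINC00894 and 28.7, 79.4 and 141.5 FPKM in the vector replicates. Nr4a1 made up 47.0%, 47.5% and 60.0% of that sum in LINC00894 and 52.3%, 60.4% and 72.5% in vector, and Nr4a2 made up 43.5%, 36.0% and 27.7% in LINC00894 and 35.4%, 24.4% and 11.3% in vector. Among 48 nuclear receptor genes ranked by mean FPKM, Nr4a1 was number 12 in LINC00894 and number 2 in vector, Nr4a3 number 30 and number 14, and Nr4a2 number 15 and number 13.

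Within the vector libraries Nr4a1 and Nr4a3 kept a nearly constant ratio, and Nr4a2 did not keep one to either. The log2 ratio of Nr4a1 to Nr4a3 in FPKM was 2.31, 1.52 and 2.29 in LINC00894 and 2.08, 1.99 and 2.17 in vector, where its SD was 0.09 although each gene ranged more than 6-fold. The group means of that ratio were 2.04 ± 0.45 in LINC00894 and 2.08 ± 0.09 in vector (SD, n = 3 each). The log2 ratio of Nr4a1 to Nr4a2 was 0.11, 0.40 and 1.11 in LINC00894 and 0.56, 1.31 and 2.68 in vector, a difference of -0.98. That of Nr4a2 to Nr4a3 was 2.20, 1.12 and 1.17 in LINC00894 and 1.52, 0.68 and -0.52 in vector, a difference of 0.94. Two-sided exact permutation tests gave p = 0.2 for Nr4a1 over Nr4a2, 1.0 for Nr4a1 over Nr4a3 and 0.3 for Nr4a2 over Nr4a3. After Benjamini-Hochberg adjustment over these 3 pairs the exact permutation p was 0.45, 1.0 and 0.45. With 20 arrangements the exact p cannot go below 0.1, so these tests cannot decide whether one member changed differently from another.

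**Figure D3:**
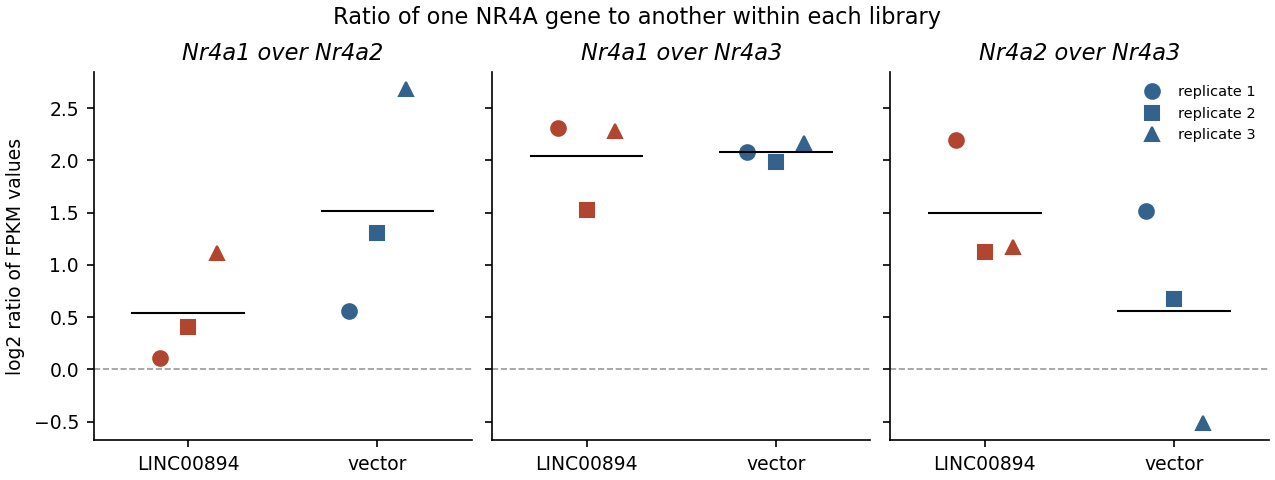
Log2 ratio of FPKM values of one NR4A gene to another within each library, for the 3 pairs, with LINC00894 and vector libraries side by side; lines are group means. Nr4a1 over Nr4a3 stays between 1.99 and 2.17 in the vector libraries, whereas Nr4a1 over Nr4a2 runs from 0.56 to 2.68 there.

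Over the 6 libraries, Pearson's r of log2 CPM was 0.98 between Nr4a1 and Nr4a3, 0.80 between Nr4a1 and Nr4a2, and 0.83 between Nr4a2 and Nr4a3. These values describe 6 points in which the members share library and depth, and Nr4a3 was the number 6 most similar gene to Nr4a1 of 12435 compared. Among the genes most like Nr4a1 were Cox10 (r = 0.996), which encodes a heme A synthesis enzyme, and Plk2 (0.984), a kinase induced by synaptic activity. Fosb (0.983), an AP-1 subunit, and Havcr2 (0.980), the immune checkpoint receptor Tim-3, were also among them. The genes most like Nr4a3 were Cltc (0.984), the clathrin heavy chain, Plk2 (0.983), Fyttd1 (0.978), an mRNA export factor, Th (0.977) and Nr4a1. The genes most like Nr4a2 were Plxna4 (0.988), a semaphorin receptor subunit, Dzank1 (0.986), Sema5b (0.983), a semaphorin, Lemd3 (0.978), an inner nuclear membrane protein, and Pde4d (0.976), a cyclic AMP phosphodiesterase. The size of the group difference was not shared by these genes: the log2 fold change was -0.16 (SE 0.16) for Cox10 and -0.10 (SE 0.14) for Cltc, against -2.46 (SE 0.47) for Fosb.

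Among the factors that switch NR4A genes on or off, most were slightly lower in LINC00894. Of 23 tested, 19 had a negative and 4 a positive log2 fold change, 0 passed edgeR's adjusted p, and the median was -0.26 against 0.01 over all genes tested. At an unadjusted p under 0.05, 4 were lower and 0 higher (2.22% and 1.82% of all genes tested). Mef2d, a calcium-responsive MEF2 factor, had 43.5, 41.7 and 29.5 FPKM in LINC00894 and 51.6, 53.4 and 56.5 FPKM in vector, so the groups did not overlap (log2 fold change -0.56, SE 0.18). Srf, the factor that binds CArG boxes, had 25.7, 19.3 and 23.8 FPKM in LINC00894 and 26.4, 28.8 and 32.8 FPKM in vector (-0.42, SE 0.16). Crtc1, a CREB coactivator of neurons, was at -0.55 (SE 0.20). Nfatc2, a calcineurin-dependent factor near 1 FPKM in most libraries, was at -0.99 (SE 0.41). Creb1 itself had a log2 fold change of 0.07 (SE 0.28). By library, the median deviation of these factors from their mean was 0.04, -0.08 and -0.27 log2 units in LINC00894 and 0.05, 0.16 and 0.14 in vector, so LINC00894 replicate 3 lay lowest.

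The binding partners of NR4A proteins were nearly level. Of 7 tested, 5 were lower and 2 higher, 0 at an unadjusted p under 0.05, with a median of -0.04. For the retinoid X receptors Rxra and Rxrb, which pair with Nr4a1 and Nr4a2, the log2 fold change was -0.13 (SE 0.21) and -0.11 (SE 0.16). Rxra stood at 7.88 ± 1.30 FPKM in LINC00894 and 8.24 ± 1.06 FPKM in vector (SD, n = 3 each). The corepressor Trim28 was at -0.04 (SE 0.16), and Bcl2, the survival protein that mitochondrial NR4A1 binds, at -0.42 (SE 0.42). Pitx3, which acts with Nr4a2 in dopaminergic neurons, did not pass the filter on low counts.

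The rapid activity genes of neurons, which share inducers with NR4A genes, lay lower in LINC00894 as well. This list was chosen with earlier results of these data known, so its direction is no independent support. Of 19 tested, 18 were lower and 1 higher, 14 of them lower at an unadjusted p under 0.05 (2.22% of all genes), and 0 passed edgeR's adjusted p, with a median of -1.07. DESeq2 called 4 of them lower, Egr4, Fosb, Arc and Fosl2, among its 8 calls, and edgeR with no filter on low counts called 3, Egr4, Fosb and Arc. Fosb had 8.34, 7.33 and 9.08 FPKM in LINC00894 and 15.3, 37.8 and 77.0 FPKM in vector, the same order of vector libraries as Nr4a1. Homer1, a postsynaptic scaffold, had 26.0, 30.6 and 27.6 FPKM in LINC00894 and 37.2, 45.5 and 52.7 FPKM in vector, with less distance between the vector libraries (log2 fold change -0.75, SE 0.17). For the transcription factor Egr4 it was -2.94 (SE 0.45) and for Arc, a regulator of synaptic strength, -1.53 (SE 0.31). Vector replicate 3 was the highest of the 6 libraries for 14 of the 19 genes, and for Nr4a1 and Nr4a3, where 23.8% of all genes tested had their highest value. The lowest library was a LINC00894 library for 19 of 19 genes and for all NR4A genes, against 52.1% of all genes tested. That trait was not particular to them. The share was 82.6% of the factors above, 87.5% of neuronal markers and 100% of the glucose metabolism genes tested, but 12.5% of striatal markers. Of these genes' promoter regions, 16 were in the RefSeq table and 9 of them (56.3%) held a TGACG core, beside 18.2% of all promoters. The promoters compared were not matched for base composition, and a part of the core in the levels of these genes was not tested.

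**Figure D4:**
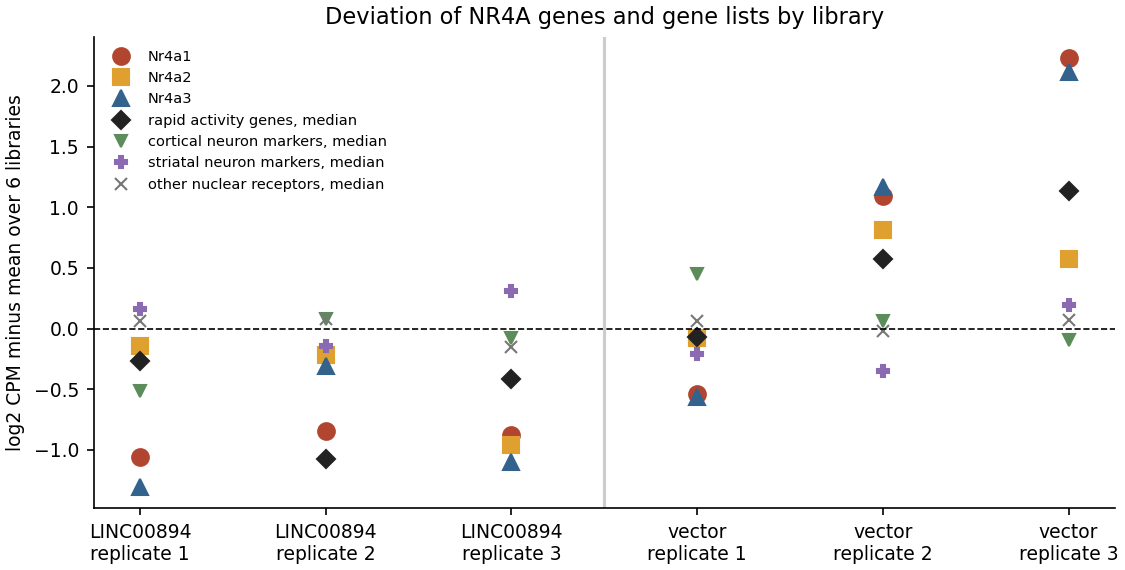
Log2 CPM minus its mean over the 6 libraries for each NR4A gene, and the median of that deviation for rapid activity genes, cortical and striatal neuron markers and the other nuclear receptors. The rapid activity genes reach 1.14 and the NR4A median 2.12 in vector replicate 3, where the median of the other nuclear receptors is 0.07.

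Genes linked to NR4A function downstream showed no common direction. Of 7 tested genes that depend on Nr4a2 in midbrain dopaminergic neurons, 3 were lower and 4 higher, with a median of 0.02. Th, the rate-limiting enzyme of dopamine synthesis, had 0.65, 0.97 and 0.76 FPKM in LINC00894 and 0.76, 1.46 and 2.99 FPKM in vector (log2 fold change -1.20, SE 0.51). It was the 1 gene of the 7 tested at an unadjusted p under 0.05 by edgeR, where 2.22% of all genes tested were lower. Vip, a neuropeptide, and Gch1, which makes a cofactor of Th, were at 0.41 (SE 0.31) and 0.29 (SE 0.40) on that scale, and Slc18a2, the vesicular monoamine transporter, at -0.17 (SE 0.22). Slc6a3, the dopamine transporter, was at most 0.22 FPKM in any library, and of the 5 markers of these neurons 2 passed the filter on low counts. Without Th itself, these markers summed to 4.03 to 5.23 FPKM in LINC00894 and 4.27 to 5.82 FPKM in vector, highest in vector replicate 3. Slc18a2 alone made up most of those sums, at 3.66 to 4.78 FPKM in LINC00894 and 3.95 to 5.24 FPKM in vector. The part of these markers in the Th and NR4A values was not tested.

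Endoplasmic reticulum chaperone genes, linked to NR4A in mouse hippocampus, were higher in 10 and lower in 2 of 12 tested, with a median of 0.08 and 0 at an unadjusted p under 0.05. The log2 fold change of Sdf2l1 was 0.40 (SE 0.26) and that of Creld2 0.37 (SE 0.24), and Pdia3 and Pdia4, protein disulfide isomerases, were at 0.22 (SE 0.20) and 0.23 (SE 0.26). Of 4 tested glucose metabolism genes linked to Nr4a1 in mouse liver and muscle, 3 were lower and 1 higher, with a median of -0.07 and 0 at an unadjusted p under 0.05. Among them Pgam2, a muscle form of phosphoglycerate mutase, had 6.14, 6.26 and 3.36 FPKM in LINC00894 and 6.09, 7.13 and 9.70 FPKM in vector (-0.61, SE 0.33). Eno3, a muscle enolase, was at 0.10 (SE 0.25), Slc2a4, the insulin-responsive glucose transporter, at -0.07 (SE 0.41), and Pfkm, a phosphofructokinase, at -0.07 (SE 0.18).

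The other nuclear receptors were centred near 0. Of 32 tested, 20 were lower and 12 higher, with 1 lower and 1 higher at an unadjusted p under 0.05 (2.22% and 1.82% of all genes) and a median of -0.08. The 3 NR4A genes had the lowest log2 fold changes of the 35 nuclear receptors tested. Next was Rara, a retinoic acid receptor, with 9.09, 4.91 and 8.05 FPKM in LINC00894 and 16.6, 13.5 and 7.54 FPKM in vector (-0.84, SE 0.31), where vector replicate 3 was the lowest vector library. At the other end stood Nr1h3, the oxysterol receptor LXR alpha, at 3.86 ± 0.990 FPKM in LINC00894 and 2.07 ± 0.930 FPKM in vector (SD, n = 3 each; 0.83, SE 0.37). Rarg, another retinoic acid receptor, and the orphan receptor Nr2f6 were at 0.37 (SE 0.22) and -0.38 (SE 0.23). The nearest listed genes with enough counts to test beside the NR4A genes, Atg101 (9184 bases from Nr4a1) and Stx17 (48795 bases from Nr4a3), were at 0.12 (SE 0.20) and 0.34 (SE 0.29). The other nearest neighbours, AC119007.5, U6, AABR07052247.1 and 7SK, held at most 22 counts over all libraries.

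**Figure D5:**
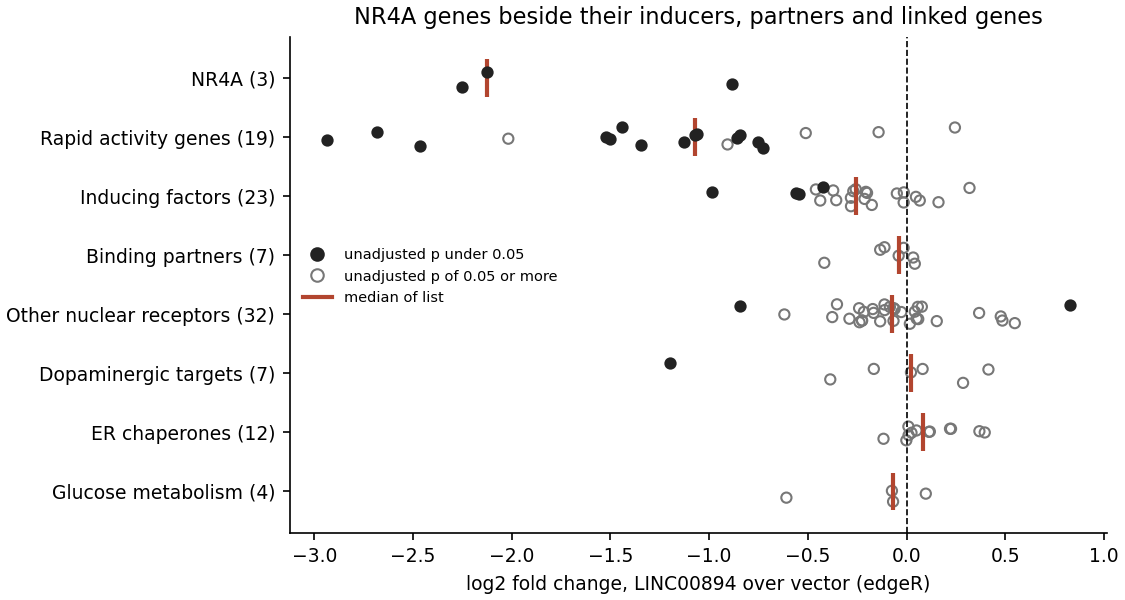
Log2 fold change of LINC00894 over vector by edgeR for the NR4A genes and the genes of 7 lists (number tested in brackets); filled points have an unadjusted p under 0.05 and red bars are list medians. The NR4A median is -2.12 and that of the rapid activity genes -1.07, while the other lists have medians between -0.26 and 0.08.

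Facts of the libraries bear on these values. Summed gene counts ran from 12843875 to 13328801 in LINC00894 and from 13384733 to 16268464 in vector. Neuronal markers were abundant in all libraries, with Snap25 at 627 to 907 FPKM in LINC00894 and 814 to 866 FPKM in vector, and all 8 neuronal markers were tested with a median log2 fold change of -0.12. Their sum was lowest in LINC00894 replicate 1, at 1615 FPKM, against 2037 to 2320 FPKM in the other libraries. The part of neuronal markers in the NR4A values was not tested. Cortical neuron markers summed to 362 to 544 FPKM in LINC00894 and 450 to 688 FPKM in vector (8 of 8 tested, 7 lower, median -0.25), being highest in vector replicate 1, where Nr4a1 was lowest among vector libraries. At an unadjusted p under 0.05 by edgeR, 2 of the 8 were lower, beside 2.22% of all genes tested. These were Tbr1 (-0.53, SE 0.23) and Fezf2 (-0.55, SE 0.23), the direction of the NR4A genes. The part of cortical neuron markers in the NR4A values was not tested. Markers of claustral and deep layer neurons, where Nr4a2 is constitutive, summed to 70.7 to 74.1 FPKM in LINC00894 and 59.9 to 93.0 FPKM in vector (7 of 7 tested, median 0.01). Their highest sum was in vector replicate 2, which also had the highest Nr4a2, and their part in the Nr4a2 values was not tested. Striatal markers were higher in 8 of 8 genes (median 0.19), with sums of 459.7 to 788.5 FPKM in LINC00894 and 457.2 to 573.3 FPKM in vector. Myeloid markers were higher in 3 of 3 tested (median 1.01), with sums of 43.7 to 175.4 FPKM in LINC00894, highest in replicate 1, and 41.8 to 74.0 FPKM in vector. In both lists 0 genes were at an unadjusted p under 0.05 by edgeR. The sums of hippocampal, astrocyte, oligodendrocyte, endothelial and choroid plexus markers also overlapped between groups. Vector replicate 3, which had the highest Nr4a1 and Nr4a3, stood apart in the sums of 2 of these lists. Its astrocyte markers summed to 514 FPKM, against 890 to 1157 FPKM in the other libraries. That distance rested on Gfap, at 156 FPKM in vector replicate 3 and 485 to 798 FPKM in the other libraries. Aqp4, Slc1a3 and Gja1 lay within the range of the other libraries, and Aldh1l1 was highest in vector replicate 3. The oligodendrocyte markers of that library summed to 3091 FPKM, against 1387 to 2407 FPKM. The NR4A values without that library are given above, and the part of these markers in them was not tested. Microglial markers summed to 52.9 to 61.6 FPKM in LINC00894 and 48.6 to 50.9 FPKM in vector, without overlap (5 of 5 tested, 4 higher, median 0.07). That separation rested on Aif1, the marker Iba1, at 7.82, 8.83 and 12.9 FPKM in LINC00894 and 5.03, 5.88 and 4.77 FPKM in vector: without it the sums were 42.4 to 52.7 FPKM in LINC00894 and 43.2 to 45.9 FPKM in vector. The endothelial marker Cldn5 was listed at 0 in every library.

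The Y-linked genes Kdm5d and Eif2s3y were at 0 counts in LINC00894 replicates 1 and 2 and had 491 and 1394 counts in LINC00894 replicate 3, while every vector library carried them. Among the 4 libraries with such counts the log2 fold changes were -2.20 for Nr4a1, -1.45 for Nr4a2 and -2.39 for Nr4a3, with edgeR adjusted p of 0.55, 0.527 and 0.531, and the lone LINC00894 library assumed to vary like the vector ones. Log2 CPM sloped with exonic length by -0.10 per doubling in LINC00894 replicate 3 and 0.06 in vector replicate 3. The 3996 genes tested with exonic lengths from 2660 to 4394 bases, the span of the NR4A genes, had a median log2 fold change of -0.03.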

How the data were processed

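Poly(A) RNA of rat brain was extracted with TRIzol, randomly primed and sequenced as paired ends, per the labels' protocols. HISAT2 2.0.1 and DESeq2 are listed, with no role stated, per the submitters' processing notes. No counter, strand setting, annotation release or genome build is stated in the sources used here. The authors deposited raw counts and FPKM values per library, per the file headers; FPKM matched counts over exonic length and summed counts to within 0.005. Rows without a symbol (388, 0.0236% of counts) stayed in. Groups follow the genotype label, and replicates are numbered in accession order. No 2 libraries agreed within sampling noise (chi-square per degree of freedom at least 14.2).

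From the counts, edgeR 4.0.16 (R 4.3.3; filterByExpr with minimum count 10 and total 15, TMM factors, quasi-likelihood test, no covariate) was fitted over 15121 genes, with Benjamini-Hochberg adjustment and calls at 0.05; the fitted coefficient of biological variation was 0.238. Log2 CPM used a prior count of 2, and exact tests used log2(FPKM + 1). DESeq2 1.42.0 and limma 3.58.1 served as alternatives, and the edgeR and DESeq2 steps were tested on simulated data. The simulation gave every gene the coefficient 0.238 in both groups, so it did not cover unequal spreads such as those of Nr4a1 and Nr4a3. Of 191 list symbols, 187 were matched, 1 of them through RefSeq. Promoters came from RefSeq (GRCr8). Named genes were the members, up to 4 genes per list with the smallest unadjusted p, the 5 genes most correlated with each member (mean FPKM of at least 1), and nearest neighbours; other names were chosen after their values were seen, and not every gene the rule selects is reported here. The members and lists were chosen with earlier results of these data known.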

Additional observations from a re-analysis of the deposited data

How the results depend on the processing

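All members kept a negative log2 fold change in all 16 alternatives (other tools, filters, scalings, each library left out, Y-linked counts): -2.71 to -1.34 for Nr4a1, -1.45 to -0.69 for Nr4a2 and -2.57 to -1.30 for Nr4a3. Nr4a1 passed with no filter on low counts (-2.26, edgeR adjusted p = 0.0155), where Nr4a3 had an adjusted p of 0.0575; the cause was not tested. Nr4a1 also came near the threshold without vector replicate 1 (adjusted p = 0.0523). The call count of 0 over all genes became 8 with DESeq2 and 8 with no filter on low counts. It ran from 0 to 9 when a library was left out: leaving out vector replicate 1 gave 2 (Fosb and Egr4), and leaving out LINC00894 replicate 3, the one LINC00894 library with Y-linked counts, gave 9, of which 5 lie on chromosome Y, 3 on chromosome X and 1 elsewhere (Egr3), none an NR4A gene. With a library left out, the log2 fold change ran from -2.71 to -1.44 for Nr4a1, from -1.11 to -0.69 for Nr4a2 and from -2.57 to -1.41 for Nr4a3. Sample quality weights in limma-voom gave -1.34, -0.78 and -1.30 for Nr4a1, Nr4a2 and Nr4a3, and library totals in place of TMM factors gave -2.19, -0.82 and -2.06, with the median of all genes at 0.08. The exact tests and the within-library ratios kept their direction under the other pseudocounts and on counts. No paired analysis was possible because the labels give the groups no shared replicate numbers. The lowest count of any member in any library was 130.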
